A study of Mus musculus with 6 samples.

Results

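The glutathione and antioxidant defence genes were 68 of the 13931 genes in an expression table of newborn mouse lenses. Membership was decided by gene symbol and not by a measured value, although the rule was chosen with earlier results of these data known. The naming rule took the glutathione peroxidases (Gpx), glutathione S-transferases (Gst and Mgst), peroxiredoxins (Prdx), glutaredoxins (Glrx), superoxide dismutases (Sod) and methionine sulfoxide reductases (Msr), every symbol starting with Txn, and Gclc, Gclm, Gss, Gsr, Cat, Nqo1, Nqo2, Srxn1, Nfe2l2, Keap1, Slc7a11, Oxr1 and Park7. The start Txn also takes in Txnl4a and Txnl4b, thioredoxin-fold proteins of the spliceosome. Of the 68 genes, 61 had an average above 1 log2 CPM, the expression threshold used here, and 7 did not.

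The data came from 3 control and 3 Celf1cKO RNA-seq libraries, each made from 2 whole lenses pooled at stage P0, the day of birth. Celf1 is an RNA-binding protein that controls the stability, splicing and translation of its target mRNAs, and its loss from the mouse lens leads to cataract. Celf1cKO mice carried a germline knockout allele (Celf1lacZKI), a conditional allele (Celf1flox) with exon 5 floxed, and the Pax6GFPCre transgene, which drives Cre in the lens from the placode stage. The labels give the controls as Celf1lacZKI/+, so that by the labels both groups carried the germline knockout allele, whereas in the methods the default controls are Cre-negative Celf1flox mice. Which genotype the control lenses had remains unsettled, and every comparison below depends on it. Mice were on a mixed background, and no sex or litter is given.

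Glutathione is a tripeptide that lens cells make and hold at very high concentration, where it keeps protein thiols reduced and the lens clear. Glutamate-cysteine ligase (Gclc and Gclm) and glutathione synthetase (Gss) make it from cystine-derived cysteine that enters through Slc7a11, and glutathione reductase (Gsr) regenerates it with NADPH. Glutathione peroxidases and glutaredoxins spend it on peroxides and mixed disulfides, and glutathione S-transferases conjugate it to electrophiles. The thioredoxin system runs beside it, with thioredoxin (Txn1) kept reduced by thioredoxin reductase (Txnrd1) and held inactive by Txnip. Many genes of both systems are targets of the transcription factor NRF2 (Nfe2l2), which Keap1 marks for degradation in unstressed cells.

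Reads counted on genes ranged from 40694454 to 44387151 per library, so that the floor, set at 3 reads, was between 0.0609 and 0.0807 CPM. Levels are given as the deposited log2 CPM, log2 fold-changes are Celf1cKO minus control, and p-values are from limma with Benjamini-Hochberg adjustment over all 13931 genes. A gene was called elevated or reduced when it had an average above 1 log2 CPM, a log2 fold-change beyond 0.58 on either side of 0 and an adjusted p-value under 0.05. Values of the 3 libraries of a group are always listed in the order of their numbers, 1 to 3. Celf1, the targeted gene, was 9.95, 9.94 and 9.34 log2 CPM in the controls against 8.93, 7.66 and 7.83 in Celf1cKO, with no overlap between the groups. Markers of lens fiber cells summed to between 179191 and 200305 CPM in control and between 144224 and 149754 CPM in Celf1cKO libraries, while Krt5 and Krt12 of the cornea, Crx, Nrl and Rpe65 of the retina and the hemoglobin genes were not among the genes of the table. Celf1cKO library 1 lay nearest the controls for 41 of the 68 genes, and results that turn on it are given with and without it. Leaving out the library nearest the controls tends to widen a difference, so that a call gained in this way is no added support.

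Across the 68 genes, 12 were called, of which 9 were elevated and 3 were reduced in Celf1cKO lenses. The 12 made up 17.6% of the 68, beside 7.39% of all genes in the table. The elevated genes were Txnip, Gstp2, Gsr, Glrx5, Txnrd1, Nqo2, Gpx3, Txnl1 and Txndc9, which was 13.2% of the 68 beside 4.77% of all genes. The reduced genes were Gstm1, Gpx8 and Txndc12, which was 4.41% beside 2.63%. For the 61 expressed genes the median log2 fold-change was 0.02, beside 0.00 for all 10640 expressed genes, and the median size of the log2 fold-change, regardless of sign, was 0.32 beside 0.26. Values of the groups did not overlap for 39 of the 68 genes (57.4%, with 23 higher and 16 lower), beside 36.5% of all genes. The genes differed in both directions, and each group of genes with the same role held members above and below 0 except the methionine sulfoxide reductases, all 4 of which lay below 0. Near copies in the annotation, at least 95% identical over 100 bases or more, were found for 18 of the 68 genes, the called genes Gstm1, Gstp2 and Txndc9 and also Gpx4, Prdx1, Prdx2, Sod1, Txn1 and Glrx3 among them, and reads of such genes are uncertain to that extent.

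**Figure D1:**
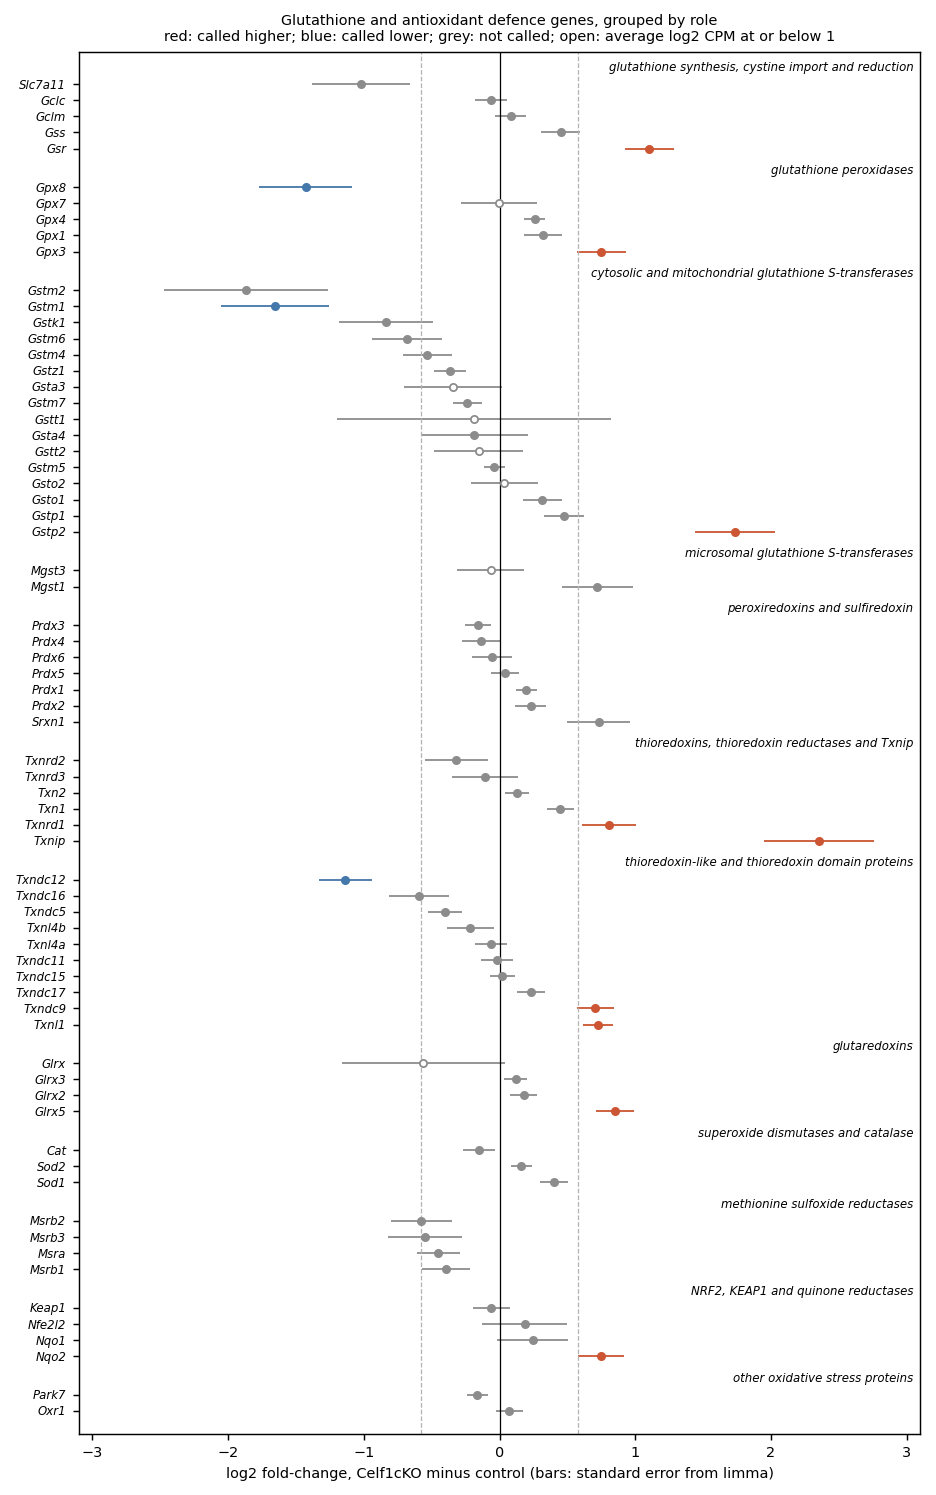
Log2 fold-change (Celf1cKO minus control) of each of the 68 genes, grouped by role, with the standard error from limma. Red points are the 9 elevated genes, blue points the 3 reduced genes, grey points genes that were not called, open points the 7 genes at or below the expression threshold, and dashed lines mark a log2 fold-change of 0.58 in either direction.

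The number of calls depended on single libraries. Without Celf1cKO library 1 there were 22 calls (11 elevated and 11 reduced, beside 13.8% of all genes), which included all 12, whereas leaving out control library 1, 2 or 3 gave 7, 0 or 3 calls and leaving out Celf1cKO library 2 or 3 gave 6 or 0. With 0 calls, limma still gave an unadjusted p under 0.05 for 22 genes without control library 2 and for 21 without Celf1cKO library 3. In each of these fits 1 gene of the whole table was called. Without control library 1 or 3 or Celf1cKO library 2, the whole table held 596, 438 and 436 calls, beside 1030 with all libraries. Gsr, Txnl1 and Txndc12 were called in 4 of the 6 fits that left out a library, Txnip, Gstp2 and Glrx5 in 3, and the other 6 in 1, the fit without Celf1cKO library 1. Without a variance trend in limma, 4 of the 12 were called (Gsr, Glrx5, Txnl1 and Nqo2), and the other 8, all 3 reduced genes among them, had adjusted p-values between 0.0501 (Gstp2) and 0.0942 (Txnrd1). Scaling the libraries to their total counted reads, in place of the authors' normalization, moved the median of all expressed genes to a log2 fold-change of 0.23, and changes are therefore relative to that shift. It gave 18 calls (15 elevated and 3 reduced, beside 13.4% of all genes), and 16 of the 68 genes changed sign, none of which was among the 12.

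In glutathione synthesis and recycling, Gsr was elevated while the genes for making glutathione were not called. Gsr (ENSMUSG00000031584, chr8:33652523-33698163, GRCm38, as are all positions here) encodes glutathione reductase, which returns oxidized glutathione to its reduced form. It stood at 4.17, 4.003 and 4.26 log2 CPM in the controls against 4.90, 5.59 and 5.26 in Celf1cKO. Every Celf1cKO library was above every control library, and the means rose from 4.14 ± 0.13 to 5.25 ± 0.34 log2 CPM (SD, n = 3 each), a 2.15-fold change (log2 fold-change 1.10, standard error 0.18, adjusted p = 0.0148). Between 594 and 2330 reads per library lay behind these values. Gss, which joins glycine in the last step of synthesis, was 8.93, 9.12 and 8.85 log2 CPM in the controls against 9.15, 9.64 and 9.46 in Celf1cKO. The groups did not overlap, but the log2 fold-change of 0.45 was under the cut-off and the adjusted p-value was 0.0815, or 0.0446 with the replicate number as a block. Gclc and Gclm, the catalytic and modifier subunits of the rate-limiting ligase, had log2 fold-changes of -0.06 ± 0.12 and 0.08 ± 0.11 (standard error), and their groups overlapped. Total-count scaling turned the sign of Gclc to 0.16.

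Slc7a11, the cystine transporter subunit that supplies cysteine for synthesis, was 5.504, 5.32 and 5.29 log2 CPM in the controls against 4.94, 3.41 and 4.71 in Celf1cKO. All 3 Celf1cKO libraries were below the controls, with library 2 far below the others, and the difference did not pass the call (log2 fold-change -1.02, standard error 0.36, adjusted p = 0.110). Without Celf1cKO library 1 it did, at a log2 fold-change of -1.31 and an adjusted p-value of 0.0395. The summed level of the 5 genes of this group was 675, 725 and 621 CPM in controls and 737, 981 and 874 CPM in Celf1cKO libraries, most of it from Gss.

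Among the glutathione peroxidases, Gpx3 was elevated, Gpx8 was reduced, and the most abundant members were not called. Gpx3, the secreted selenium-dependent peroxidase (chr11:54902453-54910377), was 1.80, 2.09 and 1.77 log2 CPM in the controls against 2.47, 2.76 and 2.67 in Celf1cKO. The groups were apart at a low level of 132 to 326 reads per library, with a 1.68-fold difference (log2 fold-change 0.75, standard error 0.18, adjusted p = 0.0410). Gpx8, a peroxidase of the endoplasmic reticulum membrane that works beside protein disulfide isomerase (chr13:113042753-113046410), was 4.07, 4.27 and 4.30 log2 CPM in the controls against 3.57, 2.07 and 2.71 in Celf1cKO. The Celf1cKO libraries lay below the controls but spread over 1.495 log2 units among themselves, and the mean fell 2.69-fold (log2 fold-change -1.43, standard error 0.34, adjusted p = 0.0393). Gpx1, the cytosolic peroxidase, had the highest level of all 68 genes per length, at 224 CPM per kb of exon in controls and 277 in Celf1cKO libraries. Its log2 fold-change of 0.32 did not pass the call (adjusted p = 0.168), nor did that of Gpx4, the peroxidase that reduces lipid hydroperoxides, at 0.26 (adjusted p = 0.0689), although neither gene's groups overlapped. Gpx7 was at or below the expression threshold, at a log2 fold-change of -0.01.

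The glutathione S-transferases held the lowest log2 fold-change of the 61 expressed genes, that of Gstm2, and the highest after Txnip, that of Gstp2. Of 16 cytosolic and mitochondrial genes, 12 were expressed, 1 was elevated (Gstp2) and 1 was reduced (Gstm1), and log2 fold-changes ran from -1.87 to 1.73. Gstm1 (chr3:108012255-108017973), a mu-class transferase, was 7.38, 7.66 and 7.86 log2 CPM in the controls against 6.89, 5.13 and 5.92 in Celf1cKO. It fell 3.15-fold on average, from 7.63 ± 0.24 to 5.98 ± 0.88 log2 CPM (SD, n = 3 each). The log2 fold-change was -1.65 with a standard error of 0.40 (adjusted p = 0.0391). In controls it was at 136 CPM per kb of exon, the second of the 68 genes when all annotated exons are merged. In Celf1cKO libraries it was at 48.5. The rank depends on the length used, since merged exons can be far longer than a transcript. Gss, for example, had 5915 bases of merged exons against 1963 bases in the transcript used for the identity search. Without Celf1cKO library 1, Gstm1 stood at -2.11.

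The reduction of Gstm1 lay within a cluster of mu-class genes on chromosome 3, whose members differed in the size of their log2 fold-change. In order along the chromosome, log2 fold-changes were -0.04 for Gstm5, -0.24 for Gstm7, -0.68 for Gstm6, -1.87 for Gstm2, -1.65 for Gstm1 and -0.53 for Gstm4. All 6 lay below 0 (5 under total-count scaling, with Gstm5 at 0.19), and the lowest values were those of the neighbours Gstm2 (chr3:107981702-107986453) and Gstm1. Gstm2 was 4.07, 4.05 and 4.51 log2 CPM in the controls against 3.87, 1.21 and 1.95 in Celf1cKO. Its Celf1cKO library 1 lay close under the controls and the other two libraries far below, and it did not pass the call (adjusted p = 0.0873) although its log2 fold-change was lower than that of Gstm1. Without Celf1cKO library 1 it passed, at -2.63 (adjusted p = 0.00262), as did Gstm6 at -0.97 and Gstm4 at -0.68. In each of these genes that library was the one nearest the controls, so that its omission favours a call. Gstm2 was called in only 1 of the 6 fits that left out a library, and its highest adjusted p-value among them was 0.232.

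Gstm5, the first gene of the cluster, was 7.24, 7.31 and 7.13 log2 CPM in the controls against 7.19, 7.15 and 7.22 in Celf1cKO. These 6 values span 0.17 log2 units, and the groups overlapped. The transcripts of Gstm1 and Gstm2 were 87.1% identical over 650 aligned bases, and Gstm1 was 89.5% identical to Gstm3, which was not among the genes of the table. Gstm1 was also 97.9% identical over 657 bases to a processed pseudogene, Gstm2-ps1, and Gstm2 97.9% identical over 145 bases to Gm6665, neither of them in the table, so that reads of both genes are uncertain to that extent.

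**Figure D2:**
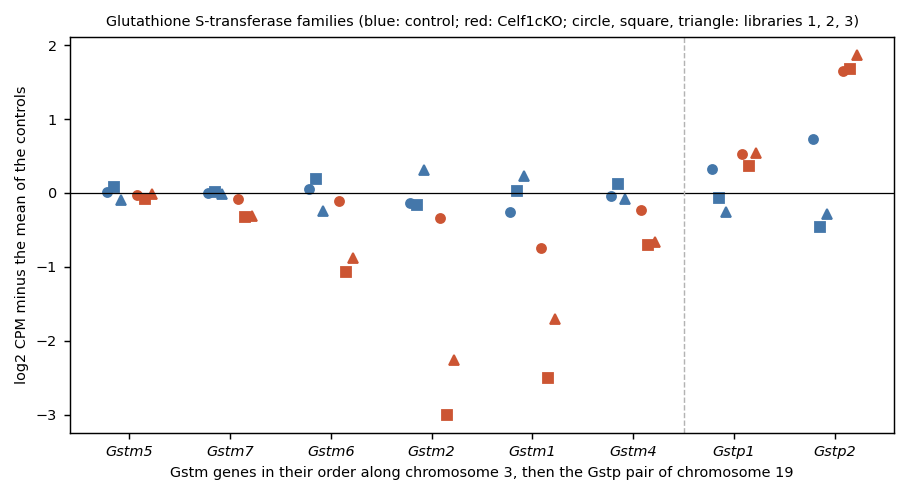
Level of each mu-class gene in order along chromosome 3, then of Gstp1 and Gstp2 on chromosome 19, in each library, as log2 CPM minus the mean of the 3 controls. Gstm5 stays near 0 in all libraries, Gstm2 and Gstm1 are lowest in Celf1cKO libraries 2 and 3, and Gstp2 is above its controls in all 3 Celf1cKO libraries.

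Of the pi-class pair, Gstp2 was elevated. Gstp2 (chr19:4040285-4046023) was 3.64, 2.45 and 2.62 log2 CPM in the controls against 4.56, 4.58 and 4.77 in Celf1cKO. It rose 3.33-fold (log2 fold-change 1.73, standard error 0.30, adjusted p = 0.0162), with control library 1 above the other controls and the 3 Celf1cKO libraries within 0.21 log2 units of each other. Gstp1, its far more abundant neighbour and a main transferase of many epithelia, was 7.97, 7.59 and 7.39 log2 CPM in the controls against 8.18, 8.01 and 8.18 in Celf1cKO. The Celf1cKO libraries were above the controls, but the log2 fold-change of 0.47 was not called (adjusted p = 0.0793). The 2 transcripts were 98.2% identical over 707 aligned bases and only uniquely mapped reads were counted, so that how their reads divide is uncertain. A processed pseudogene, Gstp-ps, which is not in the table, was 99.2% identical to Gstp2 and 97.6% to Gstp1 over 631 bases. The levels of both genes, and their sum, are uncertain to that extent. Their summed level was 212 ± 45.9 CPM in controls and 304 ± 19.9 CPM in Celf1cKO libraries (SD, n = 3 each, two-sided exact permutation test, p = 0.1). With 3 libraries a group, 0.1 is the lowest p-value this test can give. Gstp2 made up 3.68% ± 0.995 and 8.21% ± 0.584 of the sum.

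Gstz1 and Gsto1, of the zeta and omega classes, had log2 fold-changes of -0.37 and 0.32, with no overlap and no call. Gstk1, the mitochondrial kappa-class gene, was at a log2 fold-change of -0.84 (adjusted p = 0.153) and was called without Celf1cKO library 1 at -1.20. Gsta4, the alpha-class enzyme for the lipid peroxidation product 4-hydroxynonenal, was 1.90, 1.38 and 2.71 log2 CPM in the controls against 2.06, 1.23 and 2.14 in Celf1cKO, with wide overlap between the groups. Gsta3, Gstt1, Gstt2 and Gsto2 were at or below the expression threshold, Gstt1 with as few as 2 reads in a library. Of the 2 microsomal genes, Mgst1, a membrane-bound transferase and peroxidase, was at a log2 fold-change of 0.72 (adjusted p = 0.115) with no overlap, and Mgst3 was below the threshold. Neither was called by limma or by limma voom, and 1 of the 2 had an unadjusted p under 0.05.

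In the thioredoxin system, Txnip and Txnrd1 were elevated. Txnip (ENSMUSG00000038393, chr3:96557957-96561883), the thioredoxin-interacting protein that binds and inhibits thioredoxin and limits glucose uptake, had the largest log2 fold-change of the 61 expressed genes. It was 4.17, 2.60 and 3.79 log2 CPM in the controls against 5.92, 5.42 and 6.28 in Celf1cKO. The lowest Celf1cKO library was 1.25 log2 units above the highest control, and the mean rose 5.11-fold (log2 fold-change 2.35, standard error 0.40, adjusted p = 0.0162). Controls were themselves spread over 1.57 log2 units, with control library 2 lowest. An antisense gene, Gm15441, covers 606 bases (19.4%) of the Txnip exons. It was at -2.30, -2.09 and -1.86 log2 CPM in the controls against -1.25, -0.68 and -1.14 in Celf1cKO, and since the strand setting of the counting is not given in the sources used here, reads in the shared bases cannot be assigned with certainty.

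Txn1, cytosolic thioredoxin and the partner of Txnip, was 5.40, 5.25 and 5.20 log2 CPM in the controls against 5.75, 5.82 and 5.62 in Celf1cKO. Its adjusted p-value of 0.0310 passed while its log2 fold-change of 0.45 was under the cut-off. Per length, the level of Txnip relative to Txn1 was 0.144, 0.0536 and 0.126 in controls and 0.379, 0.255 and 0.530 in Celf1cKO libraries. It was 3.60-fold higher on average (two-sided exact permutation test, p = 0.1, the lowest value this test can give here). The ratio was higher in every Celf1cKO library than in any control, and below 1 in all 6.

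Txnrd1 (chr10:82833951-82897712), the cytosolic selenoenzyme that reduces thioredoxin, was 5.32, 5.19 and 5.60 log2 CPM in the controls against 5.76, 6.53 and 6.24 in Celf1cKO. It rose 1.75-fold (log2 fold-change 0.81, standard error 0.20, adjusted p = 0.0445), with library 1 the lowest of the Celf1cKO libraries by 0.49 log2 units. Its call was lost under median centring, quantile normalization and scaling without the crystallin genes, at adjusted p-values of 0.0515, 0.0559 and 0.0532 and log2 fold-changes of 0.78, 0.72 and 0.79, and each of these scalings left 11 calls among the 68 genes, 8 of them elevated. The mitochondrial Txnrd2, Txn2 and the testis-enriched Txnrd3 had log2 fold-changes of -0.32, 0.13 and -0.11, none of them called, and their groups overlapped.

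**Figure D3:**
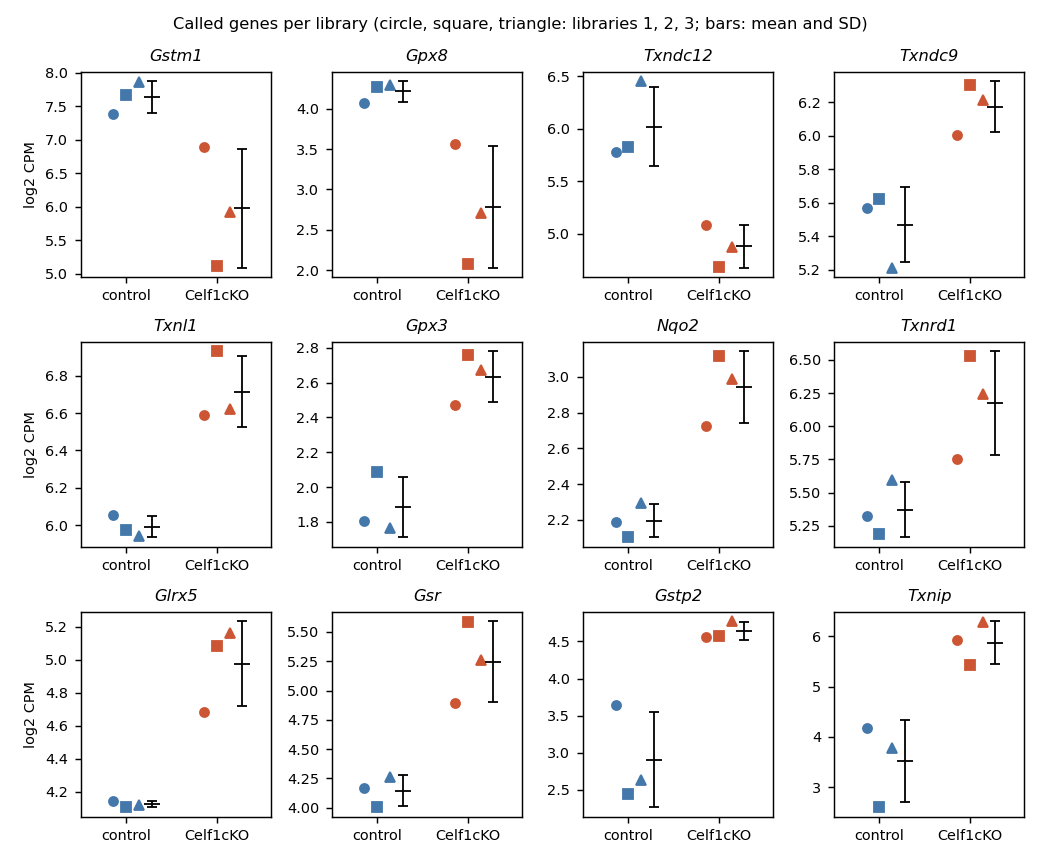
Level of each of the 12 called genes in log2 CPM, with 1 point per library, and mean and SD of each group of 3. The groups do not overlap in any panel, and in 11 of the 12 the Celf1cKO library nearest the controls is library 1.

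Sequence upstream of Txnip and Txnrd1 is shown because each held letters known from the regulation of that gene. The promoters were taken from RefSeq on GRCm38.p6, as 250 bases before to 50 after the annotated start, and 59 of the 68 genes had one. The glucose-sensing factors of the ChREBP and MondoA family bind paired boxes in the Txnip promoter, and a pair of CACGNG boxes with 5 bases between them was searched on both strands. Among the 59 promoters only that of Txnip held it, as did 16 of all 32851 promoters (0.0487%). The match starts 85 bases before the start, within the stretch shown, chr3:96557842-96557918 on the + strand of GRCm38.p6, and capitals mark both boxes with the bases between them.
Txnip: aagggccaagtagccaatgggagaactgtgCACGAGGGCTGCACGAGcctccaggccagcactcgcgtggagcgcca

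The core of the antioxidant response element, to which NRF2 binds with small Maf proteins, was searched as TGACNNNGC on both strands. It stood in 13 of the 59 promoters (22.0%), beside 16.7% of the promoters of genes in the table and 12.4% of all promoters. Of the 7 elevated genes with a promoter 1 held it (Txnrd1), of the 3 reduced genes none did, and of the 49 not called 12 did. Prdx1 and Gclm were among the 12 and are shown beside Txnrd1. The stretches shown lie at chr10:82859084-82859152 for Txnrd1 (at a RefSeq start inside the GENCODE gene), chr4:116685436-116685504 for Prdx1 and chr3:122245393-122245461 for Gclm, all on the + strand, and capitals mark the core, which reads on the opposite strand in each.
Txnrd1: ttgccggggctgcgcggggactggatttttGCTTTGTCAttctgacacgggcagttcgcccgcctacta
Prdx1: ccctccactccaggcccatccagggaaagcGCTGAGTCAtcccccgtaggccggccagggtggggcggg
Gclm: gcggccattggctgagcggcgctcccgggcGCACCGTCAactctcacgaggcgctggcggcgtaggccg

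Of the thioredoxin-like and thioredoxin domain genes, Txnl1 and Txndc9 were elevated, Txndc12 was reduced and the other 7 were not called. Txnl1, a thioredoxin-like protein that binds the proteasome, was 6.06, 5.98 and 5.94 log2 CPM in the controls against 6.59, 6.93 and 6.62 in Celf1cKO. Its adjusted p-value was the lowest of the 68 genes, with a 1.65-fold rise (log2 fold-change 0.72, standard error 0.11, adjusted p = 0.0133). Txndc9, a phosducin-like regulator of the chaperonin that folds actin and tubulin (chr1:37985189-37997893), was 5.57, 5.63 and 5.21 log2 CPM in the controls against 6.01, 6.30 and 6.21 in Celf1cKO. It rose 1.63-fold (log2 fold-change 0.70, standard error 0.14, adjusted p = 0.0216). A processed pseudogene, Gm7868, is 98.6% identical to it over 563 bases and is also in the table, so that its reads are uncertain to that extent.

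Txndc12, a thioredoxin domain protein of the endoplasmic reticulum (chr4:108834601-108862127), was 5.78, 5.83 and 6.45 log2 CPM in the controls against 5.09, 4.68 and 4.88 in Celf1cKO. Control library 3 was above the other controls, all Celf1cKO libraries were below them, and the mean fell 2.20-fold (log2 fold-change -1.14, standard error 0.20, adjusted p = 0.0166). Txndc5, also an endoplasmic reticulum protein, was at a log2 fold-change of -0.40 with no overlap (adjusted p = 0.0755, or 0.0375 with the replicate number as a block). Txndc16 was at -0.59 (adjusted p = 0.124). The spliceosome proteins Txnl4a and Txnl4b were at -0.06 and -0.21, and Txndc11, Txndc15 and Txndc17 were at -0.02, 0.02 and 0.23.

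Among the glutaredoxins, Glrx5 was elevated. Glrx5, which passes iron-sulfur clusters on in mitochondria (chr12:105032688-105042906), was 4.15, 4.11 and 4.12 log2 CPM in the controls against 4.68, 5.08 and 5.16 in Celf1cKO. The controls were within 0.04 log2 units of each other, and the mean rose 1.80-fold (log2 fold-change 0.85, standard error 0.14, adjusted p = 0.0155). Glrx3, a cytosolic iron-sulfur glutaredoxin, and Glrx2 were at 0.12 and 0.18, with no overlap and no call, and Glrx, the main thiol-reducing glutaredoxin, was below the expression threshold at 9 to 43 reads per library.

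The peroxiredoxins, which take up much of the hydrogen peroxide of many cells, were not called. Log2 fold-changes of Prdx1 to Prdx6 ran from -0.16 for Prdx3 to 0.23 for Prdx2, with Prdx4 at -0.14 and Prdx5 at 0.04 and with 3 of the 6 below 0 and none below 0 under total-count scaling. Prdx1 was 7.98, 8.06 and 7.95 log2 CPM in the controls against 8.24, 8.25 and 8.10 in Celf1cKO. Its groups did not overlap, but its log2 fold-change was 0.20 (adjusted p = 0.147). Prdx6, the 1-Cys member, was at -0.06 and turned to 0.17 under total-count scaling. Srxn1, the sulfiredoxin that repairs overoxidized peroxiredoxins and a known NRF2 target, was 2.77, 2.78 and 2.69 log2 CPM in the controls against 2.97, 3.89 and 3.57 in Celf1cKO. Its log2 fold-change of 0.73 did not pass the call (adjusted p = 0.0853), and without Celf1cKO library 1 it was 0.98 and did (adjusted p = 0.00940). None of the 7 genes of this group was called by limma or by limma voom, and 2 had an unadjusted p under 0.05.

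Sod1, the cytosolic superoxide dismutase, was 6.96, 6.78 and 6.88 log2 CPM in the controls against 7.15, 7.45 and 7.22 in Celf1cKO. Its adjusted p-value of 0.0466 passed and its log2 fold-change of 0.40 did not, and blocking by replicate number moved the adjusted p-value to 0.0594. Sod2, of the mitochondria, and Cat, the catalase of peroxisomes, were at 0.16 and -0.15, and total-count scaling turned Cat to 0.07. None of these 3 was called by limma or by limma voom, and 1 had an unadjusted p under 0.05.

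The methionine sulfoxide reductases, which repair oxidized methionine and guard the lens against oxidation, lay below 0 throughout. Msra was 4.51, 4.64 and 4.47 log2 CPM in the controls against 4.43, 3.94 and 3.91 in Celf1cKO. Log2 fold-changes were -0.45 for Msra, -0.39 for Msrb1, -0.58 for Msrb2 and -0.55 for Msrb3, with adjusted p-values between 0.109 and 0.220, and all 4 stayed below 0 under total-count scaling. The summed level of the 4 genes was 47.0, 47.3 and 46.1 CPM in controls and 43.2, 28.2 and 31.5 CPM in Celf1cKO libraries, with library 1 close to the controls. By this sum the 3 Celf1cKO libraries stood in the order 1, 3, 2. Msrb2 and Msrb3 had that order singly, whereas Msra and Msrb1 were lowest in library 3. The order of the sum was also that of the summed markers of lens epithelial cells (807, 581 and 348 CPM) and of vessels and mesenchyme (94.4, 47.1 and 23.2 CPM), whose part in these values was not tested. None of the 4 genes was called by limma or by limma voom, and 2 had an unadjusted p under 0.05. Msra and Msrb3 were called without Celf1cKO library 1 at -0.62 and -0.81.

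Of NRF2, KEAP1 and the quinone reductases, Nqo2 was elevated. Nqo2 (chr13:33964687-33988443), a quinone reductase that uses dihydronicotinamide riboside, was 2.19, 2.10 and 2.29 log2 CPM in the controls against 2.73, 3.12 and 2.99 in Celf1cKO. It rose 1.68-fold (log2 fold-change 0.75, standard error 0.17, adjusted p = 0.0343), at 158 to 419 reads per library. Its exons share 762 bases (18.9%) with Serpinb6a on the opposite strand, which had a log2 fold-change of 0.26 and was not called, and reads there are uncertain in the same way. Nqo1, the NADPH quinone reductase most used as a readout of NRF2, was 0.95, 1.03 and 1.002 log2 CPM in the controls against 1.13, 1.68 and 0.91 in Celf1cKO, with overlap between the groups. Nfe2l2, which encodes NRF2 itself, was 3.37, 4.08 and 4.04 log2 CPM in the controls against 3.39, 4.52 and 4.13 in Celf1cKO. Library 1 was the lowest of its group in both the control and Celf1cKO libraries, and the log2 fold-change was 0.18 with a standard error of 0.31. Keap1 was at -0.06 and Park7 and Oxr1, both protective against oxidative stress, were at -0.16 and 0.07, and none of the 3 was called. Park7 and Keap1 turned to 0.06 and 0.17 under total-count scaling.

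The reduced genes moved with the summed markers of lens epithelial cells and of vessels and mesenchyme, and with part of the fiber cell markers. The 10 lens epithelial markers summed to between 932 and 941 CPM in controls and to 807, 348 and 581 CPM in Celf1cKO libraries 1 to 3. All 10 were at a log2 fold-change below 0, and Foxe3 was called reduced (-2.01). Not all 10 followed the order 1, 3, 2 of their sum. Foxe3 (3.41, 1.63 and 3.77 log2 CPM) and Gja1 were highest in Celf1cKO library 3, and Wls and Abcb1b were lowest in that library. Of 10 vessel and mesenchyme markers 8 were in the table, all 8 below 0, and they summed to between 83.9 and 102 CPM in controls and to 94.4, 23.2 and 47.1 CPM in Celf1cKO libraries, the first of these within the control range. Of 14 fiber cell markers 13 were in the table and 5 of them were called reduced (Bfsp1, Gja3, Birc7, Dnase2b and Lgsn). All 5 were highest in Celf1cKO library 1 and lowest in library 2, as was Celf1 itself, and 3 of the 8 fiber cell markers that were not called had that order. Between 80.3% and 83.1% of the summed fiber cell level in each library was Cryaa, so that the sum hardly shows the other markers. Gstm1, Gstm2 and Gpx8 followed the same order of Celf1cKO libraries. Txndc12 followed it too, over a narrower range of 51.2% to 38.7% of the control mean. Of the elevated genes, Gsr, Txnrd1, Nqo2, Gpx3, Txnl1 and Txndc9 stood in the mirrored order, lowest in Celf1cKO library 1 and highest in library 2. Glrx5, Gstp2 and Txnip did not. The part of the marker cell types in the reduced and elevated genes was not tested. In whole lenses, fewer cells of a type and less RNA per cell cannot be told apart. Retina and pigment epithelium markers summed to between 3.48 and 32.2 CPM in controls and to between 7.198 and 25.0 CPM in Celf1cKO libraries, blood and macrophage markers to at most 7.10 CPM in any library, and cornea markers, of which 2 of 8 were in the table, to at most 7.01 CPM.

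**Figure D4:**
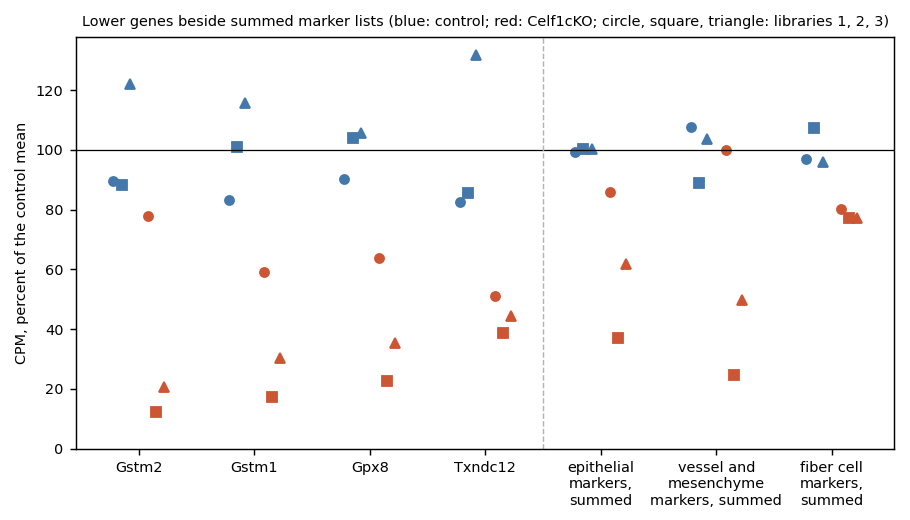
Level of Gstm2, Gstm1, Gpx8 and Txndc12 and summed level of 3 marker lists in each library, as percent of the mean CPM of the 3 controls. In Celf1cKO libraries the epithelial and the vessel and mesenchyme sums fall in the order library 1, 3, 2, as do the 4 genes, while the fiber cell sum, most of it Cryaa, is at a similar level in all 3, unlike the 5 reduced fiber cell markers, which follow the order 1, 3, 2.

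The 3′ untranslated regions were read because Celf1 binds GU-rich stretches there and is known to destabilize many of the mRNAs it binds. The longest 3′ untranslated region among the coding transcripts of each gene in GENCODE M21 was used, and the 7 letters TGTTTGT (written as DNA) were searched on the sense strand. They stood in 19 of the 68 genes (27.9%), beside 31.8% of the 10421 expressed genes that had such a region in the annotation. Of the 9 elevated genes 5 held them, Txnip, Gsr, Nqo2, Txndc9 and Txnl1, and of the 3 reduced genes none did. Over all expressed genes with such a region the shares were 46.6% of 661 elevated genes, 27.4% of 351 reduced genes and 30.9% of 9409 not called. Regions differed in length, with a median of 1670 bases in the 9 elevated genes, 481 in the 3 reduced and 1273 in all expressed genes that had one, so that longer regions had more room for a match. The sites of 4 elevated genes are shown, and capitals mark the searched letters.
Txnip: gaagaactTGTTTGTgttgactg
Gsr: cagccttgTGTTTGTtgtgtttt
Nqo2: ttgttattTGTTTGTtagcagta
Txndc9, first site: cattttttTGTTTGTttatttct
Txndc9, last site: gtatttacTGTTTGTttaggata

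The longer element of 11 letters, TGTTTGTTTGT, which is the classic GU-rich element, stood in 4.59% of expressed genes and in 1 of the 68. That was Sod2, whose level did not pass the call and which held 15 unbroken letters of the repeat. A match describes these letters only, and binding by Celf1 was not measured.
Sod2: tttcattTGTTTGTTTGTTTGTttactctc

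Other genes of the same pathways were read from lists of 97 genes outside the naming rule, of which 86 were in the table and 75 were expressed. Of the 86, 9 were called (10.5%, beside 7.39% of all genes), 6 elevated and 3 reduced. With the replicate number as a block 11 were called, and under total-count scaling 16 were. The calls lay mostly in the list of NRF2 partners and other targets, where 5 of 27 were elevated and 1 was reduced.

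Sqstm1, the p62 autophagy receptor that also sequesters Keap1, was 7.06, 6.96 and 6.94 log2 CPM in the controls against 8.43, 9.49 and 9.04 in Celf1cKO, a log2 fold-change of 2.003 (adjusted p = 0.00940). Of the same list, Rbx1, Nfe2l1 and Mafg were elevated at 0.87, 0.79 and 0.58. Rbx1 is the RING subunit of the Keap1 ubiquitin ligase, Nfe2l1 an NRF2 relative that drives proteasome genes, and Mafg a small Maf partner. Mafg passed narrowly, at a log2 fold-change of 0.5802 and an adjusted p-value of 0.0487, and was called in 1 of the 6 fits that left out a library. Hmox1, the heme oxygenase and a standard NRF2 target, was 9.03, 9.03 and 8.86 log2 CPM in the controls against 9.49, 9.26 and 9.27 in Celf1cKO. It was not called (log2 fold-change 0.37, adjusted p = 0.0560, or 0.0491 with the replicate number as a block). The sestrins split, with Sesn3 elevated at 0.97 and Sesn1 reduced at -1.10.

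For NADPH supply, 1 of 11 genes was called. Me1, the cytosolic malic enzyme that makes NADPH, was 5.45, 5.37 and 5.22 log2 CPM in the controls against 6.02, 6.55 and 6.30 in Celf1cKO, a log2 fold-change of 0.94 (adjusted p = 0.0134), while G6pdx, which opens the pentose phosphate pathway, was at 0.21 and not called. In glutathione metabolism and transport, Ggct, which breaks down gamma-glutamyl peptides, and Gstcd were reduced at -0.63 and -0.62, 2 of 21 genes, and the block by replicate number took away the call of Ggct (adjusted p = 0.0595). Chac1, which degrades glutathione, was 0.41, 1.45 and -1.73 log2 CPM in the controls against 4.11, 1.95 and 1.54 in Celf1cKO. It had the largest log2 fold-change of the pathway lists, 2.49, with no overlap between the groups at 10 to 742 reads per library, and was not called (adjusted p = 0.121), whereas with the block it was (adjusted p = 0.0471). Total-count scaling took away the calls of Ggct and Gstcd, both at a log2 fold-change of -0.40 (adjusted p = 0.0901 and 0.103), and Abcc5 and Oplah were called elevated in that fit, at 0.76 and 0.64. Of 18 selenoproteins and selenocysteine insertion genes 0 were called by limma or limma voom, with 5 at an unadjusted p under 0.05. Of 9 genes for ascorbate transport and oxidant sources 0 were called by either, with 2 at an unadjusted p under 0.05, and with the block 2 were, Slc2a1 and Ero1b.

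**Figure D5:**
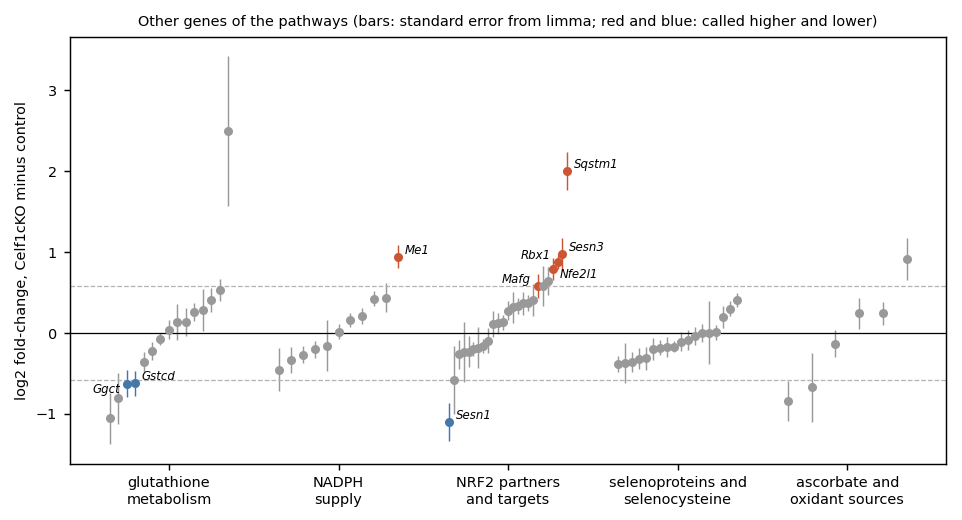
Log2 fold-change (Celf1cKO minus control) with the standard error from limma for the 75 expressed genes of 5 pathway lists outside the naming rule. Red and blue points with names are the 6 elevated and 3 reduced genes, and dashed lines mark a log2 fold-change of 0.58 in either direction.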

How the data were processed

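Whole lenses of newborn mice were sequenced as strand-specific paired-end libraries. According to the methods and processing notes, the authors aligned trimmed reads to GRCm38.p6 using STAR 2.7.8a, counted uniquely mapped reads per gene with featureCounts 2.0.0, removed genes of very low CPM and normalized with edgeR. The values they deposited are log2 CPM per library. The authors' own fold-changes and test statistics in the same table were not used, apart from their average log2 CPM, which served as expression threshold. Depth came from read numbers recovered from the step size of each library, which were all whole within 0.05.

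The 3 control and 3 Celf1cKO libraries were compared on the deposited log2 CPM with limma 3.58.1 (R 4.3.3, variance trend, no block) and Benjamini-Hochberg adjustment over 13931 genes. The procedure was tested on simulated counts. Nothing says that libraries came from separate litters, and p-values measure the spread between these libraries only. The labels share replicate numbers between the groups. Deviations from the group means correlated at 0.26, 0.39 and 0.38 between same-numbered libraries over all genes, so that the numbers were taken to pair the libraries, although no pairing is described in the methods. Calls are given without a block, since the study's methods state none, and blocked values stand beside those that the block changed. Single ratios were compared by exact permutation tests that ignore the pairing.

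The member genes, the pathway and marker lists and the tests were chosen with earlier results of these data known. The genes to be described were every called member, the 3 largest log2 fold-changes in each direction and the central enzyme of each role. Other members, Gm15441, Serpinb6a, Hmox1, G6pdx, Slc2a1, Ero1b, Chac1, Abcc5, Oplah and the marker genes were named after their values were seen. Gene positions, exon lengths (all annotated exons of a gene merged) and 3′ untranslated regions came from GENCODE M21, promoters from RefSeq, and transcript identity from blastn 2.17.0. Promoters of Txnl1, Gsr, Msra, Oxr1, Gsta4, Gclc, Txnl4a, Gstt2 and Prdx6 were not used here. The alternatives were the replicate block, 2 other variance models, log2(CPM + 1), 4 other scalings, limma voom on the recovered reads, other filters and thresholds, and the omission of each library.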

Additional observations from a re-analysis of the deposited data

How the results depend on the processing

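With 3 libraries a group, each a pool of 2 lenses, the calls rest on few libraries, and a gene that was not called cannot be taken as unchanged. Low genes such as Gstt1, Glrx and Gsta3 were too shallow for a difference to be seen.

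With the replicate number as a block, the same 12 of the 68 genes were called, 9 elevated and 3 reduced, with 1279 genes in all, 11 genes of the pathway lists, a median of 0.02 and Celf1 at -1.60, and of the pathway and marker genes it ended the call of Ggct and added Chac1, Slc2a1, Ero1b and Pdgfrb (adjusted p = 0.0462, reduced, a vessel and mesenchyme marker). The 12 called genes kept their sign under all 20 alternatives. Without a variance trend, 4 of the 68 genes were called, 4 elevated and 0 reduced, with 421 genes in all and 3 of the pathway lists, and Celf1 at -1.60 did not pass (adjusted p = 0.0693). Total-count scaling gave 15 elevated genes, a median of 0.25, 1867 genes in all and 16 of the pathway lists, by its construction as a shift of all genes. Without a fold-change cut-off 1550 genes were called. Leaving out 1 library gave 0 to 22 calls among the 68 genes (0 to 11 elevated, 0 to 11 reduced), 1 to 1916 in all and 0 to 16 in the pathway lists, with a median of 0.01 to 0.06 and Celf1 at -1.99 to -1.36. Total-count scaling turned Cat to 0.0748, Gclc to 0.16, Gsta4 to 0.0380, Keap1 to 0.17, Mgst3 to 0.15, Park7 to 0.0622 and Prdx6 to 0.17, and quantile normalization turned Gclm to -0.0154 and Mgst3 to 0.25. With 1 library left out, log2 fold-changes ran from -0.16 to 0.0354 for Gclc, -0.0123 to 0.157 for Gclm, -0.0691 to 0.496 for Nfe2l2, -0.18 to 0.0611 for Prdx6, -0.13 to 0.0515 for Keap1, -0.49 to 0.17 for Gsta4 and -0.96 to 0.0937 for Glrx. The cause was not tested. Of the values of the 40 member genes described by rule under the alternatives, 705 kept direction and side of the threshold, 56 lost and 16 gained the call, and 21 changed sign.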
